A study of Mus musculus with 21 samples.

Results

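The regions described here are sites in adult mouse hepatocytes that carried the transcription factor C/EBPα in both control libraries, lacked it in both Arid1a knockout libraries, and lay outside every H3K4me2 peak of the control libraries. Of the 27244 regions obtained by joining the peaks of the 4 C/EBPα lists, 1139 met this rule, which is 4.18% of all regions and 35.7% of the 3189 regions lost in the knockout. The regions were chosen by measured values, namely the presence of C/EBPα peaks in 4 lists and of H3K4me2 peaks in 3 control lists, so the loss itself and the missing mark are the definition of the regions and not results about them. They are called lost unmarked regions below.

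All mice were of mixed C57/B6 and 129 background and were 90 days old, and primary hepatocytes were isolated by liver perfusion before chromatin immunoprecipitation with sequencing. Knockout (KO) mice carried Arid1a Fl/Fl with Alb-cre, in which the albumin promoter drives Cre recombinase in hepatocytes. Control mice, labelled WT, carried Arid1a Fl/Fl without Cre, so both groups share the floxed alleles. The remaining genotype, V5-Arid1a, carried tagged ARID1A and was precipitated through the tag. The data comprise 2 KO and 2 WT lists of C/EBPα peaks, 3 KO and 3 WT lists of H3K4me2 peaks, and 1 list of V5-ARID1A peaks. Peak lists cannot show whether Arid1a was deleted, so the genotypes are as labelled. Of 139 genes of hepatocyte function, 123 carried H3K4me2 at a gene end in all 3 KO lists and 129 in all 3 WT lists, Alb among them, and of 66 markers of other cell types 9 and 16 did.

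C/EBPα is a basic leucine zipper factor of differentiated hepatocytes that binds as a dimer to a palindromic element and supports genes of liver metabolism and growth arrest. ARID1A is the DNA-binding subunit of the canonical SWI/SNF (BAF) complex, which moves nucleosomes and keeps many enhancers accessible. Dimethylation of lysine 4 of histone H3 (H3K4me2) marks promoters and active or primed enhancers, so a C/EBPα site without the mark lies outside the regions usually annotated as regulatory by this mark.

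Sequence could be shown for the 9 lost unmarked regions that overlapped a RefSeq promoter window (GRCm38.p6; 250 bases before to 50 after an annotated start). The 4 stretches printed here are shown because they are the 3 with a match to a C/EBP element and the one of a secreted liver protein gene. Of the 9 windows, 7 belonged to lncRNA genes and the other two to Mup7 and Tlcd3b. The windows were searched for TTGCNNAA on both strands (TTNNGCAA on the other), a relaxed form of the C/EBP element, and overlapping matches were allowed. A match was in 3 of the 9 windows, against 10.8% of all 32851 windows. It was found in 5 of 13 windows on constant unmarked regions, which had a peak in all 4 C/EBPα lists and no control H3K4me2, and in 421 of 1604 (26.2%) on constant regions with H3K4me2. A match describes these letters only. Below, the part of each window upstream of the start that lies in the lost region is given 5′ to 3′ on the strand of the gene, with matches in capitals.
Gm33424: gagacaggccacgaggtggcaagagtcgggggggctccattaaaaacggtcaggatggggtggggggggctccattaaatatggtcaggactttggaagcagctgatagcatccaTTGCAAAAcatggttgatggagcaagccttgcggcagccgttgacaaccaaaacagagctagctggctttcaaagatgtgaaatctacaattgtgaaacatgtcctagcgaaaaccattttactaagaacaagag
Gm40425: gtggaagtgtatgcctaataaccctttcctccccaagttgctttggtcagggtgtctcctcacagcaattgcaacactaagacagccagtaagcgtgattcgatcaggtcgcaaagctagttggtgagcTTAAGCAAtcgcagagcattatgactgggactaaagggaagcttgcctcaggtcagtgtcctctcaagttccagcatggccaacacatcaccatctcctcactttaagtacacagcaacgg
Tlcd3b: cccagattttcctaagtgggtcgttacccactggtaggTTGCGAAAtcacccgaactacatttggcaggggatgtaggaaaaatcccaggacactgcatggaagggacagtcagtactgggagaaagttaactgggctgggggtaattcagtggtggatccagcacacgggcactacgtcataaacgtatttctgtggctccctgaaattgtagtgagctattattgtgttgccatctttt
Mup7: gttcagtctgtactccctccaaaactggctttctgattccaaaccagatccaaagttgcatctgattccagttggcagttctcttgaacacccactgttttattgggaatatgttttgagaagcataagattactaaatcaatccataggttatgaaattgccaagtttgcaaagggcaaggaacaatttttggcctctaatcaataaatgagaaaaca
The Gm33424 stretch is chr13:52985715-52985964 on the plus strand of GRCm38.p6, and its lost region lies 2583 bp from Nfil3, a C/EBP-related bZIP repressor of the circadian output. The Gm40425 stretch is chr12:54549635-54549884 on the plus strand, 95351 bp from the nearest protein-coding gene, Sptssa. The Tlcd3b stretch is chr7:126816635-126816875 on the plus strand and lies within the annotated gene. The Mup7 stretch is chr4:60070476-60070694 on the minus strand and holds no match. Mup7 belongs to the major urinary protein cluster, whose near-identical copies make the placing of short reads there uncertain.

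Absence of H3K4me2 went with a high share of lost peaks. Of 2586 regions that both WT lists share and that hold no control H3K4me2, 1139 had no peak in either KO list (44.0%; 95% exact interval 42.1% to 46.0%, over regions). A further 357 (13.8%) had a peak in exactly 1 KO list, 135 in the first alone and 222 in the second alone, and 1090 (42.2%) were constant. Over all 16529 regions shared by the WT lists the share lost was 19.3%, and over the 13943 with H3K4me2 it was 14.7%. In the opposite direction, 104 of 1555 unmarked regions shared by the KO lists (6.69%) had no peak in either WT list. The mark was again judged in WT alone, and the share gained over all regions shared by the KO lists was not counted. The KO lists held 16178 and 17781 peaks and the WT lists 17733 and 23646. The lost and gained shares are therefore not a like comparison. These shares used the same lists as the rule, so they are given without a test. A lost region is one for which no KO peak was called and kept, and the lists do not show how much binding remained below that limit.

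In whole lists, C/EBPα peaks without control H3K4me2 made up 12.7% and 14.6% of the KO lists (2055 of 16178 and 2593 of 17781 peaks), against 17.2% and 21.7% of the WT lists (3054 of 17733 and 5125 of 23646 peaks). The mean was 13.6% ± 1.33 in KO and 19.4% ± 3.15 in WT libraries (SD, n = 2 each). The rule places 1139 and 1140 of the WT peaks, and no KO peak, in members. With member peaks left out, the WT shares were 11.5% and 17.7%, which lie on both sides of the KO shares, so the difference between whole lists restates the rule in part. Without the first WT list the rule gave 2821 regions, and without the second H3K4me2-WT list it gave 1762.

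Lost unmarked regions were narrow peaks. The deposited C/EBPα lists have no score, so width was used to rank peaks within a list, expressed as a percentile. Member peaks had a median width of 339 bp in the first WT list (range 222 to 829 bp) and 340 bp in the second (214 to 951 bp), against 361 and 370 bp for constant unmarked regions. The mean percentile over the 2 WT lists had a median of 30.9 in members, with quartiles at 18.8 and 48.3. It was 41.7 in constant unmarked regions, 40.0 in lost regions with H3K4me2 and 63.0 in constant regions with H3K4me2. Over whole lists the median peak width was 391 and 381 bp in the WT lists and 421 and 396 bp in the KO lists. The part of this difference between lists in the loss of narrow peaks was not tested.

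Wider regions had a smaller share of loss whether or not the mark was there, and the share was higher in unmarked than in marked regions in each of 5 classes of width. From the narrowest class to the widest, 53.1%, 41.5%, 36.5%, 35.1% and 32.0% of unmarked regions were lost. The matching shares of regions with H3K4me2 were 30.6%, 19.1%, 13.1%, 9.0% and 6.54%. The widest class held only 125 unmarked regions. Loss and the mark are both part of the rule and regions are not replicates, so no test was made. How far width stands for the amount of bound C/EBPα was not tested.

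**Figure D1:**
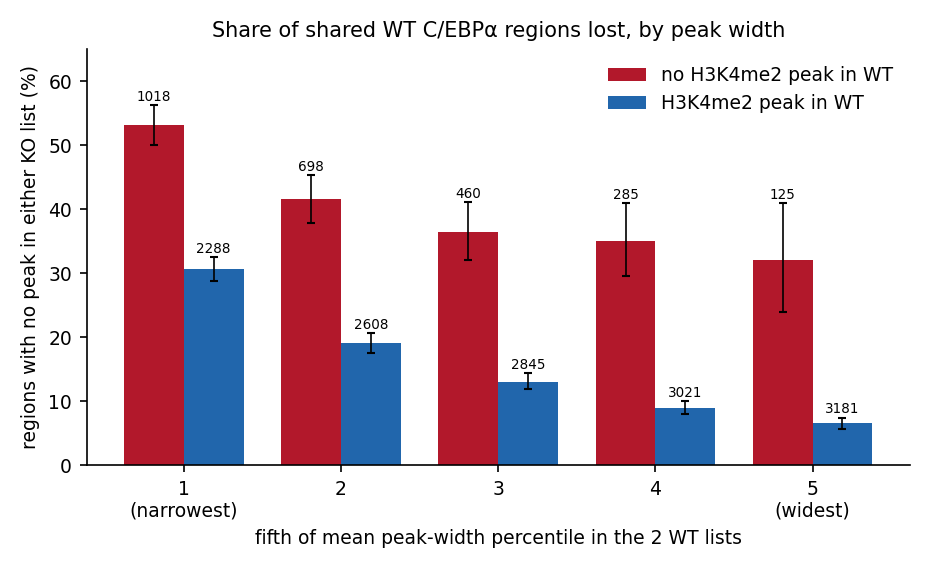
Share of C/EBPα regions present in both WT lists that had no peak in either KO list (y axis, percent), in 5 classes of mean peak-width percentile (x axis), for regions without and with a control H3K4me2 peak. Bars carry exact 95% intervals over regions and the number of regions; the unmarked bars run between 53.1% and 32.0% and stand above the marked bars, which run between 30.6% and 6.54%.

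Most of the regions lay outside genes. An end of a protein-coding gene lay within 1 kb of 32 members (2.81%), 459 (40.3%) were inside a gene away from its ends, and 648 (56.9%) were outside genes. Constant unmarked regions had 4.59% at gene ends, 48.5% inside genes and 46.9% outside. Of constant regions with H3K4me2, 19.1% were at a gene end. More than 100 kb separated 202 members (17.7%) from any protein-coding gene, against 11.8% of constant unmarked regions. The median distance to the nearest gene end was 34707 bp in members, 23230 bp in constant unmarked regions, 23585 bp in lost regions with H3K4me2 and 10709 bp in constant regions with H3K4me2. The annotation used has no strand, so a gene end can be a start or a 3′ end.

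**Figure D2:**
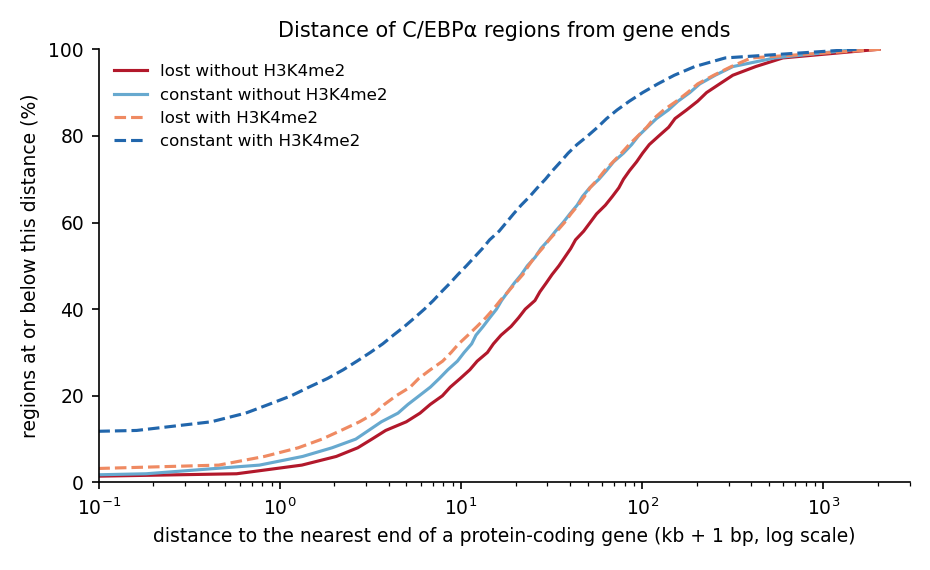
Cumulative share of C/EBPα regions (y axis, percent) by distance to the nearest protein-coding gene end (x axis, kb, log scale), for 4 classes of region. The curve of lost unmarked regions lies to the right, with a median of 34707 bp against 23230 bp for constant unmarked regions, and constant regions with H3K4me2 lie nearest to genes.

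Members lay farther than lost regions with H3K4me2 from the C/EBPα sites that remained in KO hepatocytes. Constant regions hold a KO peak by definition and cannot be compared. The nearest peak of either KO list was 158 bp from a member at the least and 43205 bp away in the median, against a median of 25592 bp for lost regions with H3K4me2. Of the members, 17 had one within 1 kb. The nearest constant region was 69188 bp away in the median, against 43652 bp for lost regions with H3K4me2. Among all unmarked WT regions, the share lost was 40.7% where the next shared WT region lay within 5 kb. It was 41.8% at 5 to 20 kb, 43.2% at 20 to 100 kb and 50.0% beyond. Another member lay within 10 kb of 42 members (3.69%) and within 100 kb of 220 (19.3%), and no other class was counted this way. Across the 20 chromosomes other than Y, the share of unmarked WT regions that were lost ran between 34.4% on chromosome 6 (54 of 157) and 58.3% on chromosome 14 (70 of 120).

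Most of these sites lacked H3K4me2 in the KO libraries too. A KO peak covered 1 member (0.0878%) in the first KO library, 51 (4.48%) in the second and 119 (10.4%) in the third, against 17 (1.56%), 183 (16.8%) and 178 (16.3%) of the constant unmarked regions. Members were lower in 3 of 3 libraries, and the mean difference was −6.56 points ± 5.45 (SD, n = 3 libraries; exact sign-flip permutation test, 2-sided p = 0.25, the smallest that 3 libraries allow). The difference was −14.1 points with the second H3K4me2-WT list left out of the marking rule and −3.68 points without the second KO library. The third KO list held 175797 peaks with a median −log10 q of 1.14, and the other 5 H3K4me2 lists held 24908 to 61246 peaks with medians of 2.42 to 4.75. In all, 983 members (86.3%) had the mark in no KO list, 141 in 1 list, 15 in 2 lists and none of the 1139 in all 3. The 15, singled out after their values were seen, all had it in the KO lists 2 and 3, and they include regions 838089 bp from Tenm2 and 2968 bp from Socs2, a feedback inhibitor of growth hormone signalling. Among constant unmarked regions 56 (5.14%) had the mark in 2 or more KO lists.

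The H3K4me2 libraries also differed in the markers of other cell types. Of the 66 such genes, 9, 37 and 28 carried the mark at a gene end in the 3 KO libraries and 18, 39 and 18 in the 3 WT libraries. Of the 14 endothelial markers, the second library of each genotype marked 12 (KO) and 12 (WT), and the remaining libraries marked 2 and 5 in KO and 4 and 4 in WT. The part of these other cell types in the results on H3K4me2 was not tested.

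The share of regions with an H3K4me2 peak within 5 kb was lower in members than in constant unmarked regions in each library. Within 5 kb, an H3K4me2 peak was found for 10.5%, 29.4% and 61.5% of members in the 3 KO libraries and for 20.2%, 33.5% and 27.8% in the 3 WT libraries. The shares of constant unmarked regions were 16.6%, 41.7% and 69.7% in the KO libraries and 24.7%, 40.4% and 32.7% in the WT libraries. Members were lower in 6 of 6 libraries, by 7.14 points on average (difference −7.14 ± 2.89, SD, n = 6 libraries; exact sign-flip permutation test, 2-sided p = 0.03125, the smallest that 6 libraries allow). The WT lists also served to choose both classes. The p passes the threshold only with them counted, so no conclusion is drawn from it. Over the 3 KO libraries alone the difference was −8.89 points and over the 3 WT libraries alone −5.38 points (sign-flip test, exact p = 0.25 each, the smallest for 3 libraries). The same regions were read in every library, so each p describes agreement between libraries and not the sampling of regions. A KO peak within 5 kb can lie on the region itself. When regions with a peak of any of the 6 H3K4me2 lists were counted as marked, a setting chosen after the data were seen, the difference was −3.23 points (sign-flip test, exact p = 0.03125). All 6 lists then chose the classes, so no conclusion is drawn from that p either. Among peaks of at least the median width alone the difference was −3.27 points (exact p = 0.15625), and without the second H3K4me2-WT library it was −13.3 points (exact p = 0.0625). The rule excludes an overlap with a WT peak in both classes, so the WT values concern only neighbouring peaks.

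**Figure D3:**
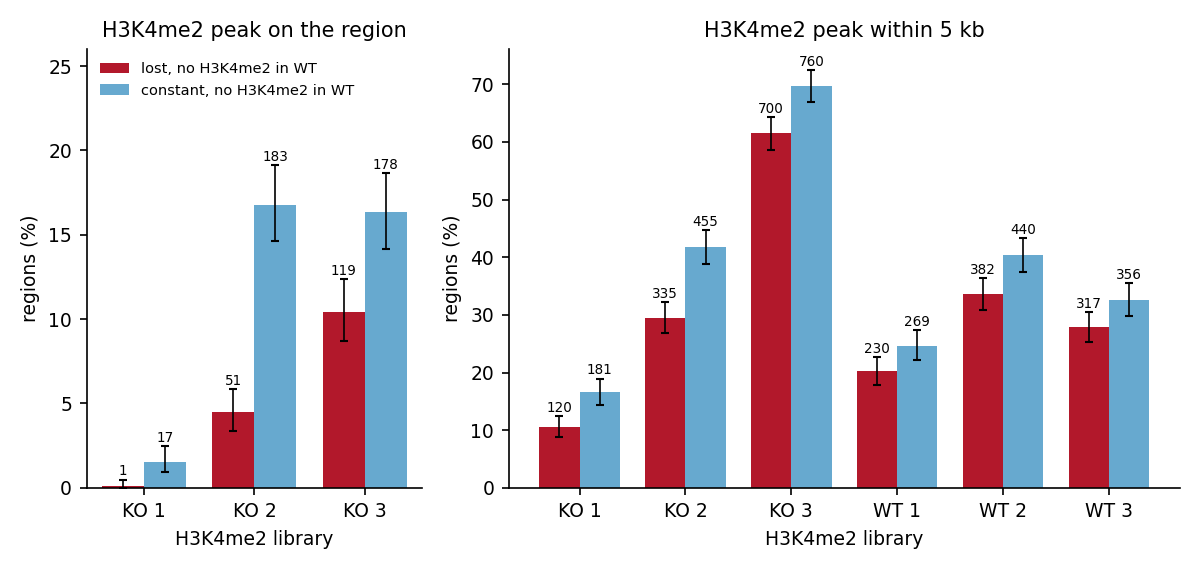
Share of regions (y axis, percent) covered by an H3K4me2 peak in each KO library (left) and with an H3K4me2 peak within 5 kb in each KO and WT library (right), for lost and constant C/EBPα regions without control H3K4me2. Bars carry exact 95% intervals over regions and the number of regions with the mark; the bar of lost regions is the lower of the pair in every library shown.

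Some members lay close to the limit of the rule. The distance to the nearest H3K4me2-WT peak had a median of 7074 bp, and 61 members had one within 100 bp and 193 within 1 kb. The 5 members nearest to one, by Dgkg, Serp2, Tcf7l1, Gna13 and Mb21d2, were 2, 5, 6, 6 and 7 bp away. On the other side, lost regions by Gli2, Rcbtb2, Spint2 and Tmem167, among those with the smallest overlaps, shared 3, 4, 5 and 6 bp with a peak. Of the 2050 lost regions with H3K4me2, 834 (40.7%) owed the mark to a single WT list.

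Few of the lost unmarked regions held an ARID1A peak. A V5-ARID1A peak covered 42 members (3.69%; 2.67% to 4.95%), against 133 constant unmarked regions (12.2%; 10.3% to 14.3%), 7.41% of lost regions with H3K4me2 and 32.8% of constant regions with H3K4me2. Counted the other way, 42 of 206 unmarked WT regions with ARID1A were lost (20.4%) and 1097 of 2380 without it (46.1%). The V5 list held 5726 peaks, against 16178 to 23646 in the C/EBPα lists, and a missing peak does not show that ARID1A was absent. The V5 library has no replicate, so no test was made. Of the 42 members, 2 were at a gene end, 16 inside a gene and 24 outside genes. Their median width percentile was 53.6, against 30.2 in the members without ARID1A.

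The share with ARID1A was lower in members than in constant unmarked regions in every class of width. From narrowest to widest it was 0.924%, 3.45%, 7.14%, 12% and 7.5% in members, the widest class resting on 3 of 40 regions, and 3.05%, 8.2%, 12.2%, 31.5% and 31.5% in constant unmarked regions. The intervals of members and constant regions were separate in the 2 widest classes and overlapped in the others. These intervals count regions of 1 V5 library, and regions are not replicates, so they are no test. Without the first WT C/EBPα list, the ARID1A share of members was 2.13%, and with only wide C/EBPα peaks it was 14.0%.

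**Figure D4:**
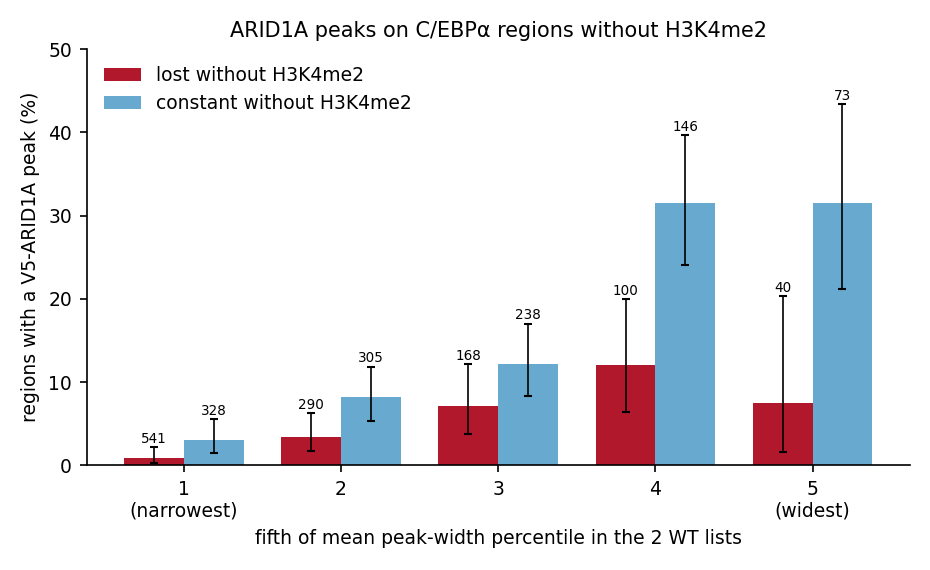
Share of regions covered by a V5-ARID1A peak (y axis, percent) in 5 classes of mean peak-width percentile (x axis), for lost and constant C/EBPα regions without control H3K4me2. Bars carry exact 95% intervals over regions and the number of regions; lost regions stay at or below 12%, while constant regions reach 31.5%.

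The 5 widest members with ARID1A lay by Cntd1, Pcsk1, Postn, Casr and Myo5b. The Cntd1 region (chr11:101287264-101287893, mm10 as for all positions below) was 630 and 579 bp wide in the 2 WT lists, lay 807 bp from a gene end and was covered by H3K4me2 in no KO list. Postn, which encodes the matrix protein periostin, was 126089 bp from its region. Pcsk1 encodes a prohormone convertase and lay 30252 bp from its region, and Casr, the calcium-sensing receptor, contained its region. The regions by Pcsk1 and Casr were both covered by H3K4me2 in the third KO list alone. Myo5b, a myosin motor of apical recycling, lay 1016 bp from its region.

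None of the 10 widest members lay at a gene end. The widest (chr1:98733270-98734220; 829 and 951 bp) lay 216284 bp from Slco6d1. The second lay 54478 bp from Ehf, which encodes an epithelial ETS factor, and the third lay 954786 bp from Csmd3. The others lay by Cldn11, a claudin of myelin, by Myog, the muscle regulator myogenin, at 1265 bp, by Col4a1, a basement membrane collagen, at 14264 bp, and by Egln3, an oxygen-sensing prolyl hydroxylase, at 157856 bp, while Dstn, Fat3 and Etl4 contained theirs. No H3K4me2 peak of a KO list and no ARID1A peak covered any of the 10. The gene ends of Dstn, Col4a1 and Egln3 had H3K4me2 in all 3 WT lists, and those of the other 7 genes had it in none.

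The 5 widest members at a gene end lay by Cntd1, Htra1, Mep1b, Zbtb21 and Cd74. The Htra1 region (chr7:130985642-130986199; 558 and 465 bp) overlapped an annotated end of the gene, which encodes a secreted serine protease. Mep1b encodes a meprin metalloprotease, and its region was 186 bp from a gene end. Cd74 encodes the invariant chain of MHC class II, a gene of antigen-presenting cells. Its gene ends had H3K4me2 in 2 KO lists and no WT list, and whether non-hepatocytes took part was not tested.

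Most genes with a member nearby had only 1, and members per gene were not compared with another class of region. A protein-coding gene lay at or within 10 kb of 631 members (55.4%), and 679 of 21887 genes had a member so placed, 635 of them with 1, 39 with 2 and 5 with 3. The 5 were Fhit, Pard3b, Ptprg, Rbfox1 and Scara5. Fhit (1612 kb), Rbfox1 (1528 kb) and Pard3b (1004 kb) are among the long genes, and the median gene containing a member was 120 kb long, against 109 kb for constant unmarked regions and 17.2 kb for all genes. The medians over regions count a gene once for each region in it, so long genes weigh more. The median of all genes counts each gene once and is not a like comparison. Rbfox1, a neuronal splicing regulator, had H3K4me2 at its ends in no list of either genotype.

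Scara5, a ferritin receptor, was the shortest of the 5 at 98.4 kb. It had 8 C/EBPα regions shared by the WT lists, of which none was constant and 3 were unmarked, all lost. The 3 lay inside the gene, at chr14:65722439-65722776 (297 and 296 bp in the 2 WT lists), chr14:65736117-65736549 (433 and 411 bp) and chr14:65759412-65759848 (437 and 357 bp). An ARID1A peak covered the last of them. Ptprg, a receptor tyrosine phosphatase, had 13 shared WT regions, 8 of them constant, and 4 unmarked, of which 3 were lost.

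Most members lay nearest to a gene that carried the mark at an end. The ends of the nearest gene had H3K4me2 in all 3 WT lists for 63.7% of members and 71.3% of constant unmarked regions. They had it in no WT list for 22.4% and 15.9%. In lost regions with H3K4me2 the 2 shares were 74.4% and 13.6%, and in constant regions with H3K4me2 84.1% and 8.62%. For all protein-coding genes the 2 shares were 55.0% and 33.7%. Among the 476 members inside genes, 66.2% had a host gene marked in all WT lists, against 74.4% of 559 constant unmarked regions. Regions that share a nearest gene are counted each time, and the rule used the same WT lists, so no test was made.

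Members by genes of hepatocyte function were counted over gene lists. Over 7 lists with 139 genes (plasma proteins and coagulation, lipid and lipoprotein, cytochrome P450 and conjugation, gluconeogenesis and glycogen, bile acid, urea cycle, and hepatocyte transcription factors), 5 genes had a member in or within 10 kb, beside 679 of 21887 protein-coding genes (3.10%). These lists had 397 C/EBPα regions shared by the WT lists, 25 of them unmarked (6.30%, against 15.6% of all shared regions), and 5 of the 25 were lost (20%; 6.83% to 40.7%), beside 44.0% of all unmarked regions. The lists of cytochrome P450 and conjugation, bile acid and urea cycle genes had no member among 2, 3 and 1 unmarked regions.

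One member lay between Alb, which encodes albumin, and Afp, which encodes alpha-fetoprotein, at chr5:90484033-90484335 (303 and 287 bp). It was 6378 bp from Afp, 1161 bp from an H3K4me2-WT peak and 1349 bp from an ARID1A peak. A member in Lipc, which encodes hepatic lipase, was 388 and 333 bp wide, at chr9:70857091-70857483. Ppargc1a, the coactivator PGC-1α, contained a region of 291 and 273 bp. Hnf4a, a nuclear receptor of hepatocyte identity, contained one at chr2:163564598-163564927 (291 and 330 bp), 215 bp from an H3K4me2-WT peak. Onecut2 contained one of 424 and 556 bp, 232 bp from such a peak.

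Other lists held small numbers, to be read beside the 44.0% lost among all unmarked regions. The circadian list had 3 lost among 8 unmarked regions, in or by Rora, Nfil3 and the clock repressor gene Cry1. The Nfil3 region (chr13:52985462-52986080; 614 and 597 bp) is the one whose sequence is printed above. The Cry1 region, 8390 bp from the gene, was covered by H3K4me2 in KO lists 2 and 3, and is 1 of the 15 members with the mark in 2 KO lists. Iron handling had 4 lost among 6 unmarked regions, of which 3 were those of Scara5 and 1 was in Cp, the ferroxidase ceruloplasmin (605 and 585 bp, chr3:19989691-19990295). SWI/SNF subunits had 2 among 7, in Smarca2, which encodes the ATPase BRM, and in Ss18. Cell cycle genes had 2 among 2, by Cdk1 and Mki67, and the growth restraint list had 1 among 1, by the Hippo kinase gene Lats2. Immediate early and regeneration genes had none among 3.

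Synapse and neuronal adhesion genes, many of them very long, had 9 members among 22 unmarked regions (40.9%; 20.7% to 63.6%), which is near the 44.0% of all unmarked regions. The genes were Dpp10, Fgf14, Grid1, Pcdh15, Pcdh9, Sdk1, Tenm3 and Tenm4, 8 of the 36 in the list, and Pcdh9 had 2 members. Unmarked regions were 28.9% of the 76 WT regions by these genes, against 15.6% of all shared regions. The 5 marker lists of other cell types had 66 genes and 25 shared WT regions. Of the 25, 4 were unmarked and 2 were lost, 1 in Eng, an endothelial TGF-β co-receptor gene, and the one by Afp. The Kupffer cell, stellate cell and lymphocyte lists had no unmarked region.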

How the data were processed

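Per the submitters' processing notes, the build was mm10 and the tools named are MACS2 2.0.10.20131216, Bowtie2 2.2.3, HOMER and Picard; their roles and the read depth are not given in the sources used here. The deposited C/EBPα and V5 lists hold coordinates only, and peak names are numbered with gaps, 40.0% to 40.1% of the numbers being present in each of the 5 lists, so a missing peak may have been called and not kept. The deposited H3K4me2 lists also give each peak a fold over local background, a score and −log10 p and q values set by the authors' peak caller within its library; the −log10 q was used to describe lists and in 1 alternative. Every list comes from 1 library.

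Peaks of the 4 C/EBPα lists were merged where they shared 1 bp or more (Python 3.11.15, pandas 2.3.3, numpy 2.4.6), and the overlap step was tested on simulated intervals and against bedtools 2.31.1. Genes and promoter windows are RefSeq on GRCm38.p6, the assembly of mm10. Shares carry exact Clopper-Pearson 95% intervals over regions (scipy 1.17.1), which cover counting only, since regions are not replicates. Library values were compared with 2-sided exact sign-flip permutation tests, the threshold being 0.05. Members, gene lists and tests were chosen with earlier results of these data known. The regions named are the widest of each kind, those near genes of 19 lists or near the genes with the most members, those on a promoter window, and those nearest the H3K4me2 threshold. Alternatives varied the merging, the peaks used, the marking rule, the windows and the libraries left out.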

Additional observations from a re-analysis of the deposited data

How the results depend on the processing

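The number of members ranged over 1212 to 2821 when 1 C/EBPα or H3K4me2-WT list was left out. It was 585 with the same number of widest peaks in every C/EBPα list, 235 with only peaks of at least the pooled median width, 2047 when only H3K4me2-WT peaks at or above the pooled median −log10 q marked a region, and 1973 when a mark in 2 or more WT lists was needed. The share lost was 38.0% to 55.7% with 1 list left out, and under those same 4 settings 39.3%, 51.1%, 36.5% and 37.9%. It was 48.3% when a peak in any of the 6 H3K4me2 lists marked a region, an alternative chosen after the data were seen. The ARID1A share was 2.13% to 4.41% with 1 list left out, 6.32% with equal numbers of widest peaks and 14.0% with wide peaks alone. The gene end share was 1.76% with a window of 500 bp and 14.0% with 5 kb.

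The difference in H3K4me2 within 5 kb stayed negative in all 23 alternatives run. It was −13.3 to −6.10 points with 1 list left out, where the exact p was 0.0625 for each H3K4me2 list left out, the smallest that 5 libraries allow. It was −8.89 points over the KO lists alone and −5.38 over the WT lists alone (exact p = 0.25, the smallest for 3 libraries), −3.27 points with wide peaks alone (exact p = 0.15625) and −3.23 points when any of the 6 H3K4me2 lists marked a region (exact p = 0.03125). Every setting but that of the KO lists alone counted H3K4me2-WT lists that also chose the classes. In the setting where any of the 6 lists marked a region, all 6 chose them. The settings share regions and libraries, so no conclusion is drawn from their agreement in sign. The difference in H3K4me2-KO overlap stayed negative in all 19 alternatives, −14.1 to −3.68 points with 1 list left out, with no exact p below 0.25. The cause of these shifts was not tested. No paired analysis was possible because replicate numbers could pair KO with WT libraries only, and the genotype comparison of C/EBPα lists chose the regions and has no test. The sign-flip tests compare 2 classes of region within each library, and with libraries taken as separate groups the KO overlap difference had an exact permutation p of 0.3. Every library reads the same regions, so the tests describe agreement between libraries and not the sampling of regions.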
